A study of Camelus dromedarius with 10 samples.

Results

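CRYAB, the gene of the small heat shock protein alpha B-crystallin, and the genes of the heat shock factors HSF1, HSF2 and HSF4 were followed in the supraoptic nucleus (SON) of the dromedary camel. The 4 genes were taken by name, and they are 4 of the 22444 gene IDs counted. The IDs of the 3 factors were paired through a complete table of the study. That of CRYAB was paired only through a table sorted by p, of which a shortened copy was used here. A small p was therefore a condition for CRYAB to be found here. RNA was sequenced from 10 male camels aged 4 to 5 years, with 1 library per animal. The 5 control camels had food and water freely available, whereas the 5 water-deprived (WD) camels had food but went 20 days without water. Each sample was a set of punches from the rostral SON of 1 side, so it held magnocellular neurones together with glia and vessels, and libraries were made from total RNA after depletion of ribosomal RNA. In such a bulk sample, more cells of a type and more RNA per cell cannot be told apart.

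Heat shock factors are transcription factors that bind heat shock elements, short repeated motifs in the promoters of chaperone genes. HSF1 is the main activator under protein-damaging stress is held inactive in unstressed cells by chaperones, and is switched on largely by changes of the protein rather than of its mRNA. HSF2 acts with HSF1 and has roles in brain development, and HSF4 is best known from the lens of the eye, where it drives crystallin genes. CRYAB binds unfolding proteins and keeps them from aggregating without using ATP, and in the brain it is expressed mostly in oligodendrocytes and astrocytes.

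Between 1665098 and 8126641 read pairs were counted on genes per library, and 5 gene IDs took between 27.7% and 76.1% of them. The read pairs left for all other genes were fewest in CON13, with 397495, and in WD6, with 1106575, against at most 5872137 in WD9. Levels are given as CPM, the count scaled by the size of the library after TMM normalization, so that 1 read pair is worth 1.20 CPM in CON13 and 0.475 CPM in WD6, and between 0.0864 and 0.237 CPM in the other 8 libraries. The neuronal regulators SIM1, OTP and ARNT2 were present in both groups, with means of 71.0, 39.5 and 366 CPM in control and 68.8, 25.7 and 359 CPM in WD camels. The opioid precursor gene PDYN was at 162 ± 46.4 CPM (SD, n = 5) in control and 618 ± 127 CPM (SD, n = 5) in WD camels, and it rose by 1.93 on the log2 scale with an adjusted p of 0.000302 by edgeR. It was the 1 gene called among 5 magnocellular markers, against 0.499% of all genes tested, and the other 4 had log2 fold changes between -0.58 and -0.03. VIP of the neighbouring suprachiasmatic nucleus reached at most 2.39 CPM. The genes of vasopressin and oxytocin were not analysed here.

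CRYAB was about 2 times higher in WD camels. The level of CRYAB in the control libraries was 91.6 CPM in CON2, 66.9 in CON3, 60.5 in CON4, 81.5 in CON5 and 47.8 in CON13. In the WD libraries it was 129 CPM in WD6, 125 in WD7, 136 in WD8, 132 in WD9 and 173 in WD15. Every WD library lay above every control library, 4 of the WD libraries were close together, and WD15 stood above them. The mean was 69.7 ± 17.2 CPM (SD, n = 5) in control and 139 ± 19.1 CPM (SD, n = 5) in WD camels. CRYAB rose by 0.98 on the log2 scale (SE 0.18), a fold of 1.97 with a 95% interval from 1.50 to 2.58, and edgeR gave an adjusted p of 0.0186 (quasi-likelihood test, Benjamini-Hochberg method over 14432 genes).

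The counting intervals of CRYAB did not overlap between the groups either. The exact 95% Poisson interval reached up to 101 CPM in CON2, the highest control library, and down to 114 CPM in WD6, the WD library with the lowest bound. These intervals cover counting error only. In all, 1836 CRYAB read pairs were counted in control and 4498 in WD camels, but CON13 gave 40 of them. Within the WD group the interval of WD15, from 161 to 185 CPM, lay above those of the other 4 libraries, which ended at 146 CPM or lower.

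**Figure D1:**
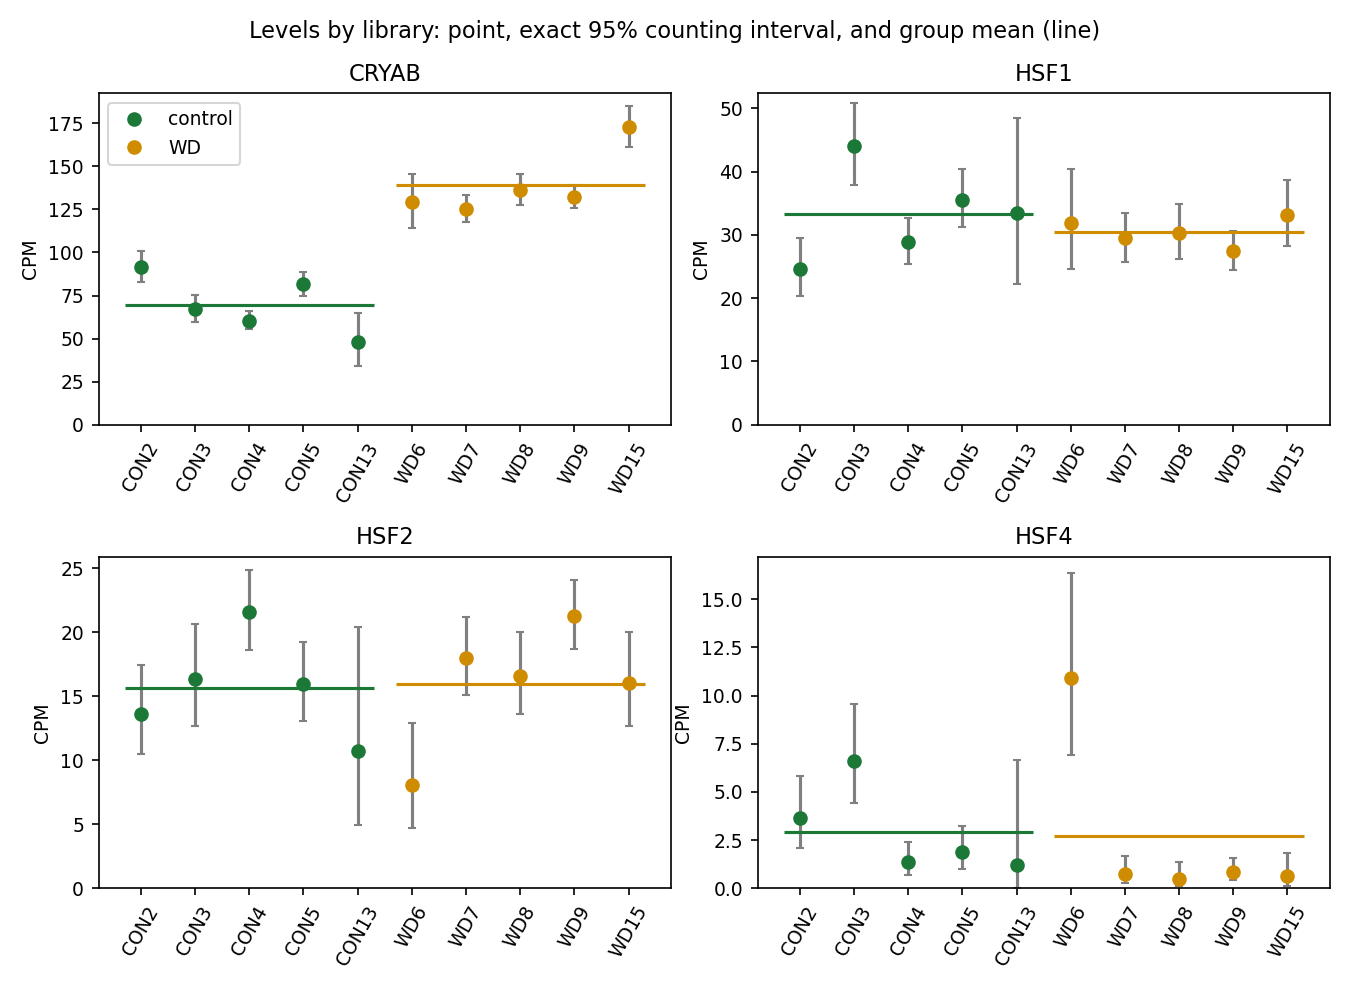
Level of CRYAB, HSF1, HSF2 and HSF4 in CPM (vertical axes, each from 0) in the 5 control and 5 WD libraries (horizontal axes), with the exact 95% Poisson interval of each count and the mean of each group as a line. CRYAB separates the groups, from at most 91.6 CPM in control to at least 125 CPM in WD libraries, HSF1 and HSF2 overlap, and HSF4 is high in WD6 alone among WD libraries.

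Of the 14432 genes tested, 72 passed the threshold of 0.05 on the adjusted p (0.499%), of which 39 were higher (0.27%) and 33 lower (0.229%) with WD. The WD libraries lay above all control libraries in 1.34% of genes and below them in 1.27%, so the groups did not overlap in 2.62%. Of the 4 genes, 3 passed the filter on low counts, and CRYAB was the 1 that passed the threshold and the 1 whose groups did not overlap. Nothing about the 4 genes is read from this count, because CRYAB could be paired with its ID only through the table sorted by p. CRYAB ranked at 42 by p. Among the 39 genes called higher, 33 had a larger fold change than CRYAB, so it was among the smaller of the called rises.

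The call on CRYAB depended on single libraries and on the scaling. Scaled by library totals only, the log2 fold change was 1.10 with an adjusted p of 0.99998 by edgeR. Scaled by the size factors of DESeq2 or by library totals without the dominant gene IDs, CRYAB stayed called, with 0.0196 and 0.0213 by edgeR. When single libraries were left out, the log2 fold change stayed between 0.88 and 1.07. The adjusted p of edgeR rose above the threshold without CON3 (0.0895), without CON4 (0.0633), without WD8 (0.0563) and without WD15 (0.0522). DESeq2's Wald test gave an adjusted p of 2.3e-05 for the same difference, 0.98, and called 1.27% of the 16447 genes it gave an adjusted p. Without CON13 and WD6 together the log2 fold change was 0.90, with an adjusted p of 0.0329 by edgeR, and with the RNA integrity number as a covariate it was 0.89, with 0.0138 by edgeR.

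HSF1, the main stress-activated factor, gave no call. Its level in the control libraries was 24.5 CPM in CON2, 44.0 in CON3, 28.8 in CON4, 35.6 in CON5 and 33.5 in CON13. In the WD libraries it was 31.8 CPM in WD6, 29.5 in WD7, 30.3 in WD8, 27.4 in WD9 and 33.1 in WD15. All 5 WD libraries lay inside the range of the controls, and CON3 was the highest of the 10 libraries and CON2 the lowest.

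The mean of HSF1 was 33.3 ± 7.36 CPM (SD, n = 5) in control and 30.4 ± 2.20 CPM (SD, n = 5) in WD camels. The log2 fold change was -0.13 (SE 0.19), with an adjusted p of 0.895 by edgeR. The 95% interval of the fold ran from 0.696 to 1.20, so a change of HSF1 of the size fitted for CRYAB lies outside it in either direction. The coefficient of variation was 22.1% in control and 7.23% in WD camels, and this difference in spread was not tested. The counting intervals of CON2, from 20.3 to 29.5 CPM, and of CON3, from 37.9 to 50.8 CPM, did not overlap.

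HSF2, which can form mixed trimers with HSF1, was likewise not called. Its level was 13.7 CPM in CON2, 16.3 in CON3, 21.6 in CON4, 16.0 in CON5 and 10.8 in CON13. The WD libraries had 8.07 CPM in WD6, 18.0 in WD7, 16.6 in WD8, 21.3 in WD9 and 16.0 in WD15. The groups overlapped widely, and in each group the lowest library was the one with the fewest read pairs outside the 5 dominant gene IDs, CON13 with 9 counts of HSF2 and WD6 with 17.

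The mean of HSF2 was 15.7 ± 3.98 CPM (SD, n = 5) in control and 16.0 ± 4.87 CPM (SD, n = 5) in WD camels. The log2 fold change was 0.02 (SE 0.24), with an adjusted p of 0.990 by edgeR and a 95% interval of the fold from 0.707 to 1.45. The counting interval of CON13, from 4.92 to 20.4 CPM, overlapped those of all other controls. That of WD6, from 4.70 to 12.9 CPM, overlapped that of WD15 but not those of WD7, WD8 and WD9. Without both of these libraries the log2 fold change of HSF2 was 0.07, with an adjusted p of 0.918 by edgeR. The part of depth in the low values was not tested.

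HSF4, the lens factor, had only 116 counts in all and did not pass the filter, so its fold change comes from an edgeR fit of 21986 genes without the filter. Its level was 3.63 CPM in CON2 from 17 counts, 6.62 in CON3 from 28, 1.38 in CON4 from 12, 1.90 in CON5 from 13 and 1.20 in CON13 from 1. In the WD libraries it was 10.9 CPM in WD6 from 23 counts, 0.765 in WD7 from 6, 0.461 in WD8 from 3, 0.864 in WD9 from 10 and 0.625 in WD15 from 3. WD6 was the highest of all 10 libraries, whereas the other 4 WD libraries lay below every control library.

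The mean of HSF4 was 2.95 ± 2.27 CPM (SD, n = 5) in control and 2.73 ± 4.58 CPM (SD, n = 5) in WD camels. The log2 fold change was -0.44 (SE 0.77), with a 95% interval from -2.02 to 1.14 and an adjusted p of 0.922 by edgeR. Without WD6 the WD mean was 0.679 ± 0.175 CPM (SD, n = 4) and the log2 fold change was -2.01, with an adjusted p of 0.239 by edgeR. Without CON3 it turned to 0.10, with an adjusted p of 0.996. No difference in HSF4 was called in these sets, and its size and direction rested on WD6 and CON3.

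The counting interval of HSF4 in WD6, from 6.92 to 16.4 CPM, lay above those of the other 4 WD libraries, which ended at 1.83 CPM or lower. It overlapped that of CON3, which ended at 9.57 CPM. HSF5, a further gene of the family known mainly from the testis, had 49 counts and levels of 1.23 ± 1.37 CPM (SD, n = 5) in control and 1.30 ± 1.18 CPM (SD, n = 5) in WD camels. Its log2 fold change without the filter was 0.35, with an adjusted p of 0.953 by edgeR. When single libraries were left out, it ran from -0.14 without WD6 to 0.90 without CON13.

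**Figure D2:**
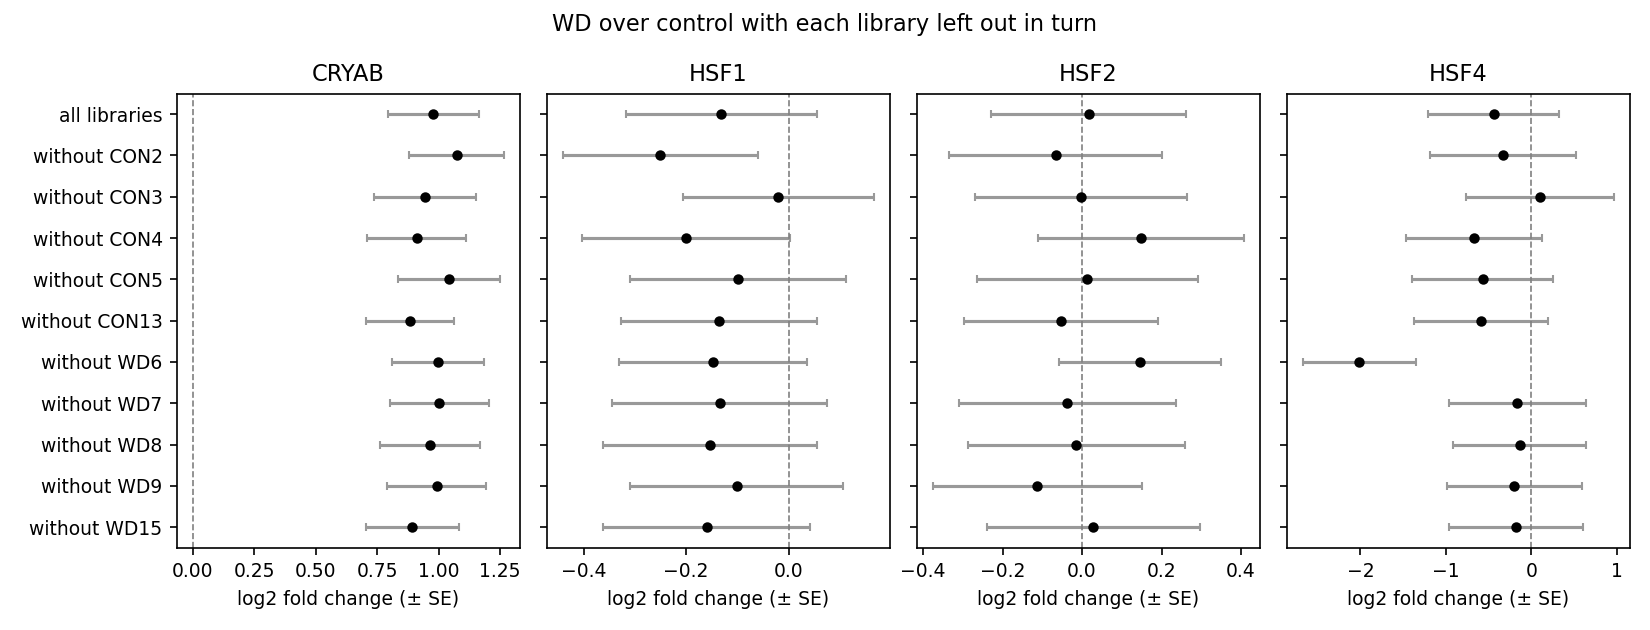
Log2 fold change of WD over control with its SE (horizontal axes, of a different range in each panel) for CRYAB, HSF1, HSF2 and HSF4, with all libraries and with each library left out in turn (vertical axis). CRYAB stays between 0.88 and 1.07, HSF1 stays below 0, HSF2 lies on both sides of 0, and HSF4 moves to -2.01 without WD6 and to 0.10 without CON3.

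Ratios of counts within a library need no normalization and show whether CRYAB moved against the factors. Because a small p was a condition for CRYAB to be found here, p-values of ratios with CRYAB are no separate support for its difference. This holds also for its ratios to cell type markers below. The log2 ratio of CRYAB to HSF1 was 1.89 in CON2, 0.60 in CON3, 1.07 in CON4, 1.20 in CON5 and 0.51 in CON13. In WD libraries it was 2.01 in WD6, 2.09 in WD7, 2.17 in WD8, 2.27 in WD9 and 2.38 in WD15. The groups did not overlap, and the WD libraries were close together while the controls were spread. The mean ratio rose by 1.13 on the log2 scale (two-sided exact permutation test, p = 0.00794, the smallest that 252 assignments allow, and 0.0476 adjusted over 6 pairs). Without CON3, CON4, CON5, CON13, WD7, WD8 or WD15 its adjusted p was 0.0952 by the exact permutation test, where the raw p of 0.0159 was the smallest that 9 libraries allow.

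The log2 ratio of CRYAB to HSF2 lay between 1.48 and 2.74 in control and between 2.63 and 3.96 in WD libraries, with CON2 above WD9. It rose by 1.03 (exact permutation test, p = 0.0159, adjusted 0.0476). Without any of CON3, CON4, CON5, CON13, WD7, WD8 and WD15 the adjusted p of this exact permutation test was 0.0952. Without CON13 and WD6 the difference was 0.82, with an adjusted p of 0.0686 by the exact permutation test. The ratio of CRYAB to HSF4 was 3.31 to 5.40 in control libraries, 3.54 in WD6 and 7.19 to 7.99 in the other WD libraries, and the means differed by 2.08 (exact permutation test, p = 0.0476, adjusted 0.0952). Without WD6 this difference was 2.88, with an adjusted p of 0.0238 by the exact permutation test.

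The factors were not shown to move against each other when all libraries were used. The log2 ratio of HSF1 to HSF2 differed by -0.10 (exact permutation test, p = 0.778). That of HSF1 to HSF4 differed by 0.95 and that of HSF2 to HSF4 by 1.05, each with an adjusted p of 0.438 by the exact permutation test. WD6 was the lowest of all 10 libraries in both ratios to HSF4, and without it the differences were 1.71 and 2.05, each with an adjusted p of 0.0238 by the exact permutation test. The raw p of 0.0159 was the smallest that 9 libraries allow, and both ratios share the same few counts of HSF4. HSF4 itself was not called without WD6, with an adjusted p of 0.239 by edgeR. WD6 was singled out after its values were seen, so no change of HSF4 is read from any ratio to HSF4.

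**Figure D3:**
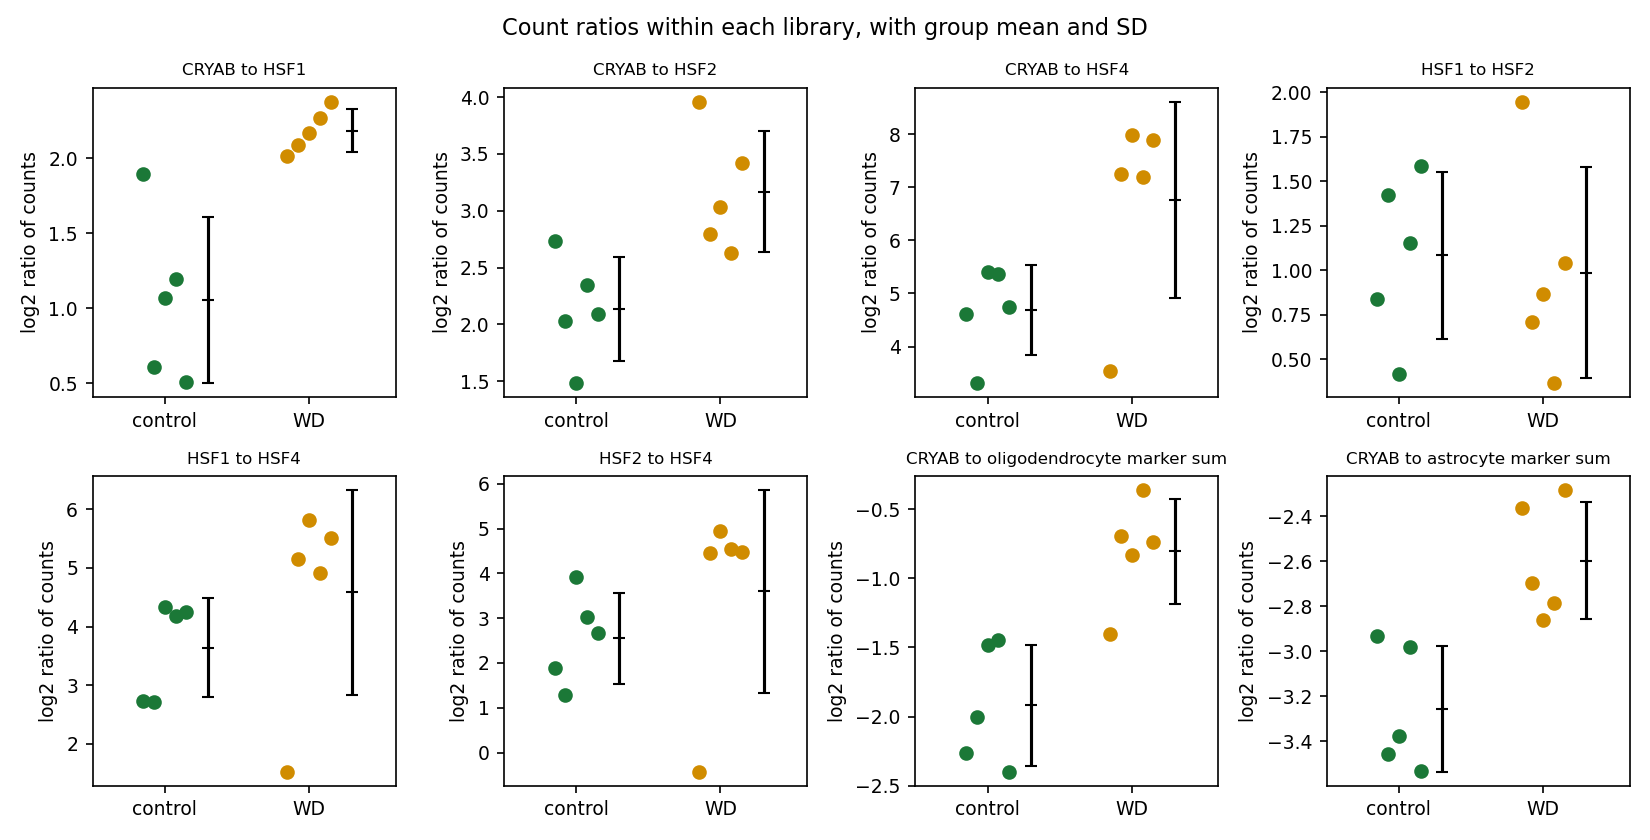
Log2 ratio of counts within each library (vertical axes, not from 0) for the 6 pairs of genes and for CRYAB over the summed counts of oligodendrocyte and astrocyte markers, with points in library order for control and WD libraries and black bars for the group mean and SD. CRYAB over HSF1 and over both marker sums separates the groups, and WD6 lies far below the other WD libraries in the 3 ratios to HSF4.

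CRYAB is a gene of oligodendrocytes and astrocytes, so its level was set beside markers of both. None of the 8 oligodendrocyte markers that passed the filter, of 9, was called by edgeR, 7 of the 8 had a log2 fold change below 0, and the median was -0.12 against 0.02 over all genes tested, of which 51.9% lay above 0. The split depended on depth. With depth group (the 5 libraries with the fewest read pairs outside the dominant gene IDs against the other 5) as a covariate 4 of the 8 lay below 0 and the median was 0.00099, and without CON13 and WD6 all 8 lay below 0 and the median was -0.31. The markers included SOX10 and MYRF, regulators of oligodendrocyte identity and myelination, at 48.6 ± 19.9 and 76.7 ± 30.9 CPM (SD, n = 5) in control and 46.9 ± 17.1 and 64.1 ± 20.5 CPM (SD, n = 5) in WD camels. Their summed level lay between 169 and 439 CPM in control and between 170 and 342 CPM in WD libraries, and no marker was at 0 in all libraries. The ratio of CRYAB to this sum rose by 1.12 on the log2 scale without overlap of the groups (exact permutation test, p = 0.00794, also after adjustment over 2 marker ratios).

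None of the 6 astrocyte markers that passed the filter, of 7, was called by edgeR, 4 of the 6 had a log2 fold change below 0, and the median was -0.04. With depth group as a covariate 2 of the 6 lay below 0 and the median was 0.02, so no direction is read from either list. The angiotensinogen gene AGT was at 303 ± 74.1 CPM (SD, n = 5) in control and 484 ± 73.7 CPM (SD, n = 5) in WD camels, a log2 fold change of 0.67 with an adjusted p of 0.192 by edgeR and of 0.0214 by DESeq2, which called 1.27% of genes. Its groups did not overlap, as in 2.62% of all genes tested, but they nearly touched, with at most 397 CPM in control and at least 398 CPM in WD libraries. The summed level was 560 to 736 CPM in control and 664 to 992 CPM in WD libraries, with overlap, and came mostly from AGT and from NTRK2, which was at 297 ± 30.9 and 315 ± 60.7 CPM (SD, n = 5). The ratio of CRYAB to this sum rose by 0.66 without overlap (exact permutation test, p = 0.00794, also after adjustment). The study cites AGT in rodent magnocellular neurones as well as in astrocytes. The ratio is therefore not read as CRYAB relative to the amount of astrocytes. No marker of the astrocyte list was at 0 in all libraries.

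Markers of other cell types in the punches were read in the same way. All 8 microglia markers had a log2 fold change above 0, as had 51.9% of all genes tested, with a median of 0.76, and none was called by edgeR, the lowest adjusted p being 0.229. With depth group as a covariate, edgeR called 1.55% of all genes and 1 of the 8, PTPRC, a pan-leukocyte gene, with an adjusted p of 0.0179. Their sum lay between 264 and 430 CPM in control and between 320 and 886 CPM in WD libraries, with overlap. Of 11 endothelial markers, 10 passed the filter and none was called, with a median of 0.25 and sums of 288 to 467 CPM in control and 291 to 579 CPM in WD libraries. Of 7 IDs of mural or muscle markers, 6 passed the filter and none was called by edgeR, with sums of 68.7 to 80.9 CPM and 54.1 to 73.2 CPM. In this list HEYL, a Notch target, had a log2 fold change of -1.16 with an adjusted p of 0.104 by edgeR, 0.0351 by DESeq2 and 0.00206 by edgeR with depth group as a covariate, where it was -1.33. The part of microglia, endothelium or mural cells in the difference in CRYAB was not tested.

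Chaperones and co-chaperones that hold HSF1 or share its programme were read from a list of 4 genes named in complete tables. None of the 4 was called by edgeR, and the median log2 fold change was 0.25. HSP90AA1, an inducible cytosolic HSP90, was at 844 ± 228 CPM (SD, n = 5) in control and 1027 ± 218 CPM (SD, n = 5) in WD camels. HSP90AB1, its constitutive partner, was at 394 ± 108 and 352 ± 104 CPM (SD, n = 5). HSPD1 of mitochondria and PTGES3, the HSP90 co-chaperone p23, had log2 fold changes of 0.23 and 0.27. Adjusted p-values in this list were 0.737 or higher by edgeR. Chaperones outside this list and the next were not analysed, so no statement on the HSF1 programme is drawn.

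A second list of 6 chaperone genes could be paired with an ID only through a table sorted by p, as was CRYAB, so that their presence depends on the difference itself, and their shared direction is no result. HSPB1, a small heat shock protein that forms mixed complexes with CRYAB, was at 33.9 ± 5.46 CPM (SD, n = 5) in control and 46.3 ± 6.48 CPM (SD, n = 5) in WD camels, a log2 fold change of 0.45 with an adjusted p of 0.433 by edgeR. The chaperones of the endoplasmic reticulum HSPA5 and HSP90B1 had 0.44 and 0.47. DNAJB9 had 0.94, with an adjusted p of 0.261 by edgeR, and FKBP5, a glucocorticoid-induced HSP90 co-chaperone, had 0.80, with 0.265. DNAJC1 had 0.42. None of the 6 passed the threshold, also by DESeq2.

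**Figure D4:**
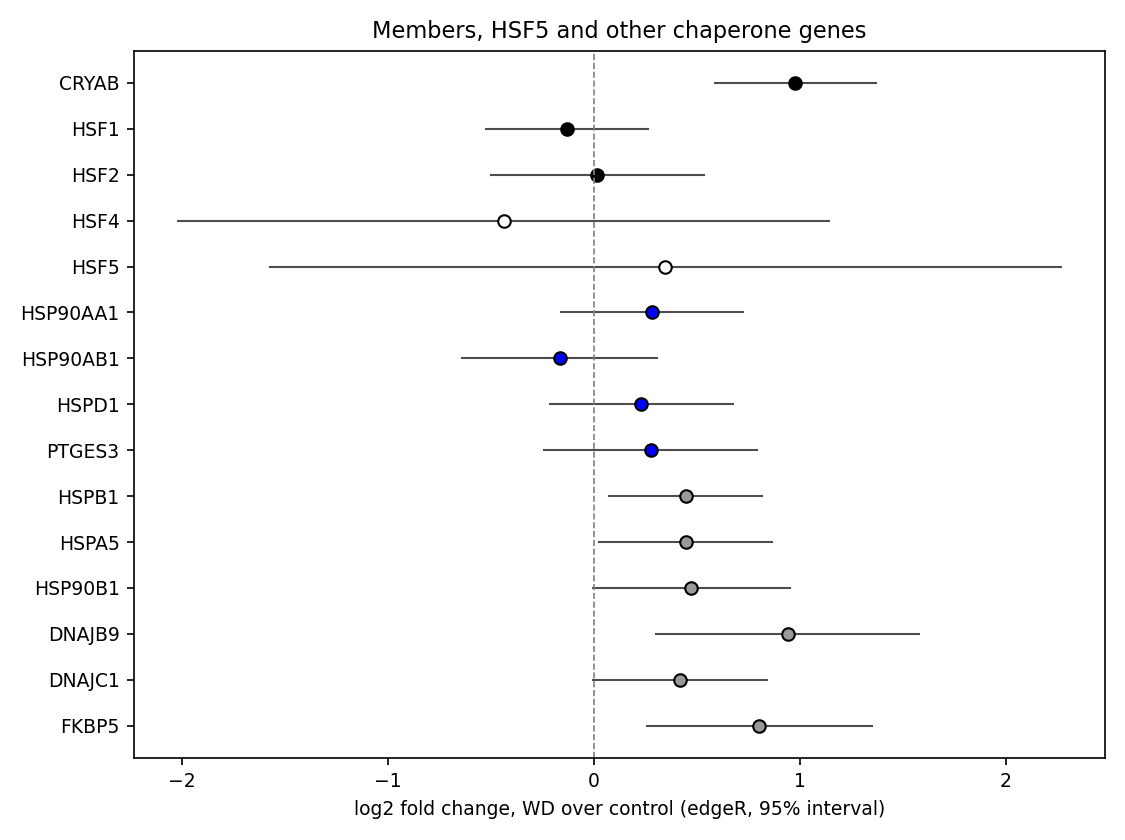
Log2 fold change of WD over control (horizontal axis) with its 95% interval from edgeR for CRYAB, HSF1 and HSF2 (black), HSF4 and HSF5 from the fit without the filter (white), 4 chaperone genes of complete tables (blue) and 6 of a table sorted by p (grey). CRYAB at 0.98 is the only gene of the plot that passed the threshold on the adjusted p, and HSF4 and HSF5 have the widest intervals.

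Kinases and deacetylases that act on HSF1 or CRYAB gave no call in 15 genes tested, with 7 log2 fold changes above 0, 8 below 0 and a median of -0.06. MAPKAPK2, which phosphorylates small heat shock proteins, was at 18.3 ± 1.39 CPM (SD, n = 5) in control and 25.9 ± 7.11 CPM (SD, n = 5) in WD camels, with an adjusted p of 0.433 by edgeR. Its groups did not overlap, as in 2.62% of all genes tested, but they were separated by less than the worth of 1 read pair, with at most 20.3 CPM in control and at least 20.4 CPM in WD libraries. MAPK3 and PRKACA, kinases with sites on HSF1, had log2 fold changes of -0.40 and -0.38, with adjusted p-values of 0.453 and 0.524 by edgeR. MTOR, at 115 ± 13.5 and 104 ± 6.29 CPM (SD, n = 5), GSK3B, at 47.6 ± 11.1 and 46.1 ± 8.32 CPM (SD, n = 5), and the deacetylase SIRT1, at 13.5 ± 3.26 and 12.9 ± 5.95 CPM (SD, n = 5), gave adjusted p-values of 0.825 or higher by edgeR.

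Across the 10 libraries the genes most like CRYAB in log2 CPM were LRP8, a receptor of the LDL receptor family, SCPEP1, a serine carboxypeptidase, SLC3A2, the heavy chain of amino acid transporters, LMO2, a LIM domain transcription cofactor, and MGAT4A, a glycosyltransferase, with Pearson's r between 0.947 and 0.953. These points share their libraries and their groups, and each of the 5 genes had a log2 fold change above 0, between 0.55 and 1.02. With group means removed, the most alike were KDM3B, a histone demethylase, with r of 0.962, and GRK3, a receptor kinase, with 0.929, besides 3 IDs without a symbol here. Pearson's r of CRYAB with HSF1 was -0.29 and with HSF2 0.07, and that of HSF1 with HSF2 was -0.14, over the same 10 libraries.

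CRYAB has ID ENSCDRG00005022310, HSF1 ENSCDRG00005016892, HSF2 ENSCDRG00005001943 and HSF4 ENSCDRG00005009366. In NCBI's RefSeq annotation of another camel assembly, HSPB2 lies within 1000 bp of CRYAB, BOP1 within 1000 bp of HSF1 and NOL3 and FBXL8 within that distance of HSF4, while an uncharacterized locus overlaps HSF1. The libraries were stranded, but the strand setting used in counting is not given in the sources used here, so counts of HSF1 and of this locus may not be fully separate. HSPB2 was not analysed here.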

How the data were processed

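RNA of 10 rostral SON samples (5 control, 5 WD) was sequenced by the study. The authors used STAR (genome Camdro2) for alignment and featureCounts for read pairs per gene, and deposited the raw counts of 22444 Ensembl gene IDs, 1 column per library. A deposited table of normalized values was not used. A few gene IDs dominate each library, so genes with few counts are least precise in CON13 and WD6. Intervals from counts cover counting error only.

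WD and control were compared with edgeR 4.0.16 in R 4.3.3 (quasi-likelihood F test, robust, TMM, filterByExpr by group, Benjamini-Hochberg over 14432 genes, threshold 0.05). HSF4 and HSF5 failed the filter and were fitted without it, a choice made after seeing the data. DESeq2 1.42.0 (Wald test) was an alternative. Ratios used log2 counts with 0.5 added and two-sided exact permutation tests. These ran in Python 3.11.15 with scipy 1.17.1 and numpy 2.4.6. The edgeR script was tested on simulated data.

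Symbols come from the study's supplementary tables, which paired 4316 IDs. The only one that pairs CRYAB is sorted by p. The study describes it as holding 22444 genes, but the copy used here was shortened to 1819 rows. The 4 genes and all lists were chosen with earlier results of these data known. Named genes are the 4, genes of these lists, and the 5 genes most like CRYAB on either scale. Each library is a separate animal. Other alternatives were other scalings and filters, RIN, fragment length or depth group as a covariate, and leaving libraries out.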

Additional observations from a re-analysis of the deposited data

Results flagged for a closer look

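In groups of 5 libraries, a library was singled out where its gap to the nearest other library was over 0.71 of the range of its group, a limit that about 1 in 20 groups pass by chance. Of 24 groups examined, 5 held such a library. For CRYAB, WD15 was the highest WD library, with a gap of 0.733 of the range. Without WD15 the WD mean was 131 ± 4.72 CPM (SD, n = 4), against 139 ± 19.1 CPM (SD, n = 5) with it, and the log2 fold change was 0.89, with an adjusted p of 0.0522 by edgeR. For HSF4, WD6 was the highest WD library, with a gap of 0.858 of the range. The same 23 counts of HSF4 in WD6 enter the ratios of CRYAB, HSF1 and HSF2 to HSF4, in which WD6 was the lowest WD library with gaps of 0.820, 0.790 and 0.905, so these are not separate observations. WD6 was also the WD library with the fewest read pairs outside the dominant gene IDs and the one with the lowest HSF2. The part of its depth in these values was not tested.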

How the results depend on the processing

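The log2 fold change of CRYAB stayed between 0.89 and 1.10 under 11 alternatives and past the threshold in 10. With library totals only it was 1.10 with an adjusted p of 0.99998 by edgeR, and that scaling moved the median of all genes tested from 0.02 to 0.16. With each library left out it ranged from 0.88 to 1.07. HSF1 kept its direction and was never called, from -0.16 to -0.00027 under 11 alternatives and from -0.25 to -0.02 with libraries left out. HSF2 turned to -0.077 with depth group as a covariate and ranged from -0.11 to 0.15 with libraries left out, below 0 in 6 of 10. HSF4 ranged from -2.01 to 0.10 with libraries left out, above 0 only without CON3, and from -2.19, without CON13 and WD6, to -0.29 by DESeq2, never called. A minimum of 10 counts in every library leaves out HSF2 and HSF4. The 72 genes past the threshold became 209 with DESeq2, 224 with depth group and 10 with library totals only, and 40 (without CON3) to 102 (without WD6) with libraries left out. With libraries left out, the difference in the log2 ratio ranged from 0.99 to 1.34 for CRYAB to HSF1, 0.83 to 1.18 for CRYAB to HSF2, 1.73 to 2.88 for CRYAB to HSF4, -0.34 to 0.057 for HSF1 to HSF2 (above 0 without CON13 and without WD9), 0.64 to 1.71 for HSF1 to HSF4 and 0.71 to 2.05 for HSF2 to HSF4. The first pair exceeded an adjusted p of 0.05 in 7 of 10 such sets, with 0.0952 by the exact permutation test from a raw p of 0.0159, and the second in 7 of 10 at the same adjusted p from a raw p of 0.0317. Without CON13 and WD6 the 5 differences other than HSF1 to HSF2 were 1.03, 0.82, 2.90, 1.87 and 2.08, and all but the second passed, with 0.0429 by the exact permutation test. Those to HSF4 share its few counts and are not separate observations. Where not stated, the cause was not tested. No paired analysis was possible because the control and WD libraries came from different animals.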

Other observations

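With group means removed, the gene most like HSF1 over the 10 libraries was DNAJC1, a J-domain protein of the endoplasmic reticulum membrane, with Pearson's r of 0.952. It was chosen after its values were seen. This r is the largest of 14431 correlations, and the largest for HSF2 on this scale was 0.985. DNAJC1 was not among the 5 genes most like HSF1 in log2 CPM. DNAJC1 was at 14.6 ± 3.09 CPM (SD, n = 5) in control and 19.4 ± 0.903 CPM (SD, n = 5) in WD camels. It is 1 of the 6 chaperone genes paired with an ID only through the table sorted by p.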
